A study of Danio rerio with 21 samples.

Results

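Natriuretic peptides are hormones that the heart releases when its wall is stretched. The ligand genes of this group are *nppa* (atrial natriuretic peptide), *nppb* (B-type natriuretic peptide) and *nppal* (a paralog named A-like, also listed as *anpl* and *cnp3*). The receptor genes are those of the guanylate cyclase receptors, *npr1a*, *npr1b* and *npr2*, and *npr3*, of the clearance receptor. All were sought by gene symbol in the annotation of the array. Of the 7 genes, 5 carried a feature (a set of probes read as 1 signal), with 1 feature each, and no row bore the symbol or the gene number of *npr1b* or *npr2*, which were therefore not analysed here. Features with a log2 signal above 6 in 1 or more arrays entered the tests (35783 of 75212), among them 4 of the 7 genes: *nppa*, *nppb*, *nppal* and *npr3*. The feature of *npr1a* stayed below that level in all 21 arrays.

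The precursor peptides are cut by proteases to the circulating hormones. Binding to a guanylate cyclase receptor raises cyclic GMP in the target cell, which activates a protein kinase and is broken down by phosphodiesterases. The clearance receptor lacks the cyclase and takes the peptides up for degradation. In mammals the A-type and B-type peptide genes are switched on in the strained ventricle, where they serve as markers of cardiac stress. In the RefSeq annotation of the zebrafish assembly GRCz12tu, *nppal*, *nppb* and *nppa* lie next to each other in this order, with 0 other annotated genes between them.

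RNA of heart ventricles was taken from adult fish of the TU strain, 10 to 11 months old, and the ventricles of 5 fish were pooled for each array. Uninjured hearts served as controls (3 pools), and 3 pools were taken at each of 6 times after cryoinjury, in which a stretch of the ventricle wall is killed by cold. The times were 4 hours post injury (4 hpi) and 1, 3, 7, 14 or 90 days post injury (dpi). The samples hold no sham-operated and no later uninjured group, so surgery and elapsed time cannot be told apart from cryoinjury. The labels call the pools of a group biological replicates. Pearson correlations over the tested features were between 0.952 and 0.977 within groups and between 0.844 and 0.969 across groups, and array medians differed by less than 0.1, around 5.16. In RNA of a whole ventricle, fewer cells of a type and less RNA per cell cannot be told apart. The cardiomyocyte markers *myl7*, *tnnt2a*, *actc1a*, *tnni1b*, *ttn.1*, *ttn.2* and *ryr2b* had control means between 10.9 and 13.5, as heart muscle should. Changes are log2 differences from control hearts ± standard error from 1 limma fit of the 7 groups, with p-values adjusted by Benjamini-Hochberg over all tested features and 0.05 as the limit for a call.

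After cryoinjury the 3 ligand genes rose, by 1.36-fold (*nppa*) to 111-fold (*nppal*) at 4 hpi, and the clearance receptor gene *npr3* fell. At 4 hpi 3 of 4 tested members were higher, *nppa*, *nppb* and *nppal*, where 21.3% of all tested features were higher. limma called 0 members lower there (1, *npr3*, at an unadjusted p under 0.05), with 17.5% of features. At 1 dpi *nppb* and *nppal* were higher and *npr3* lower, against 22% and 16.5% of features. At 3 dpi 3 members were higher and *npr3* lower (20.7% and 14.9% of features), and so they were at 7 dpi (14.5% and 8.02%). At 14 dpi *nppb* and *nppal* were higher and *npr3* lower (9.39% and 4.57%). At 90 dpi 1 member, *npr3*, was lower, where 7.68% of features were lower, and limma called 0 higher (1, *nppal*, at an unadjusted p under 0.05), with 11.2% of features. With quantile normalization the shares of features higher and lower were 17.6% and 22.2% at 4 hpi, 18.1% and 21.6% at 1 dpi and 8.13% and 6.48% at 14 dpi, and the median feature shifted by -0.11 at 1 dpi. The direction of each of the 4 genes against control was the same under that scaling.

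**Figure D1:**
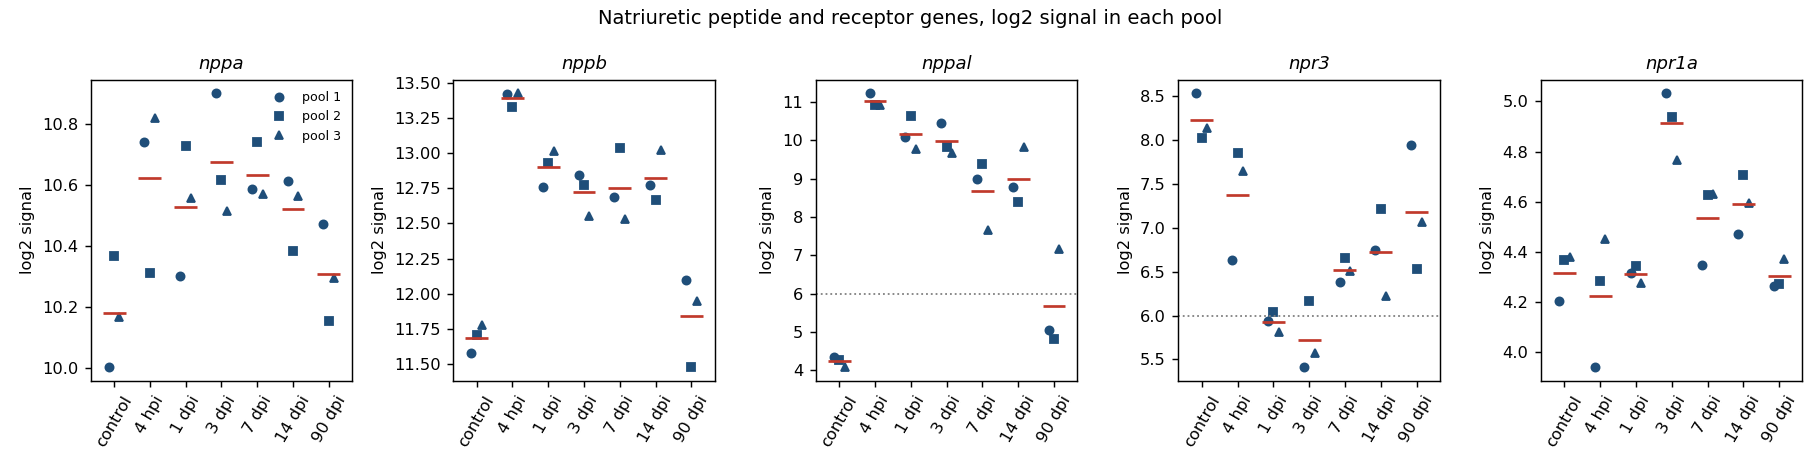
Log2 signal (y axis, a separate scale in each panel) of the 5 genes with a feature in each pool, by group (x axis). Symbols mark pools 1 to 3 of a group, red lines the mean of 3 pools, and the dotted line a log2 signal of 6; *nppal* moved from a control mean of 4.23 to 11.03 at 4 hpi, whereas *nppa* stayed between 10.00 and 10.90 in all pools.

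*nppal* showed the widest range of the ligands. Its log2 signal was 4.34, 4.27 and 4.08 in the 3 control pools and 11.23, 10.93 and 10.94 in those of 4 hpi. The control values lay below the median of every array and all 4 hpi values far above it, without overlap. The change was 6.80 ± 0.52 (adjusted p = 7.7e-08), or 111-fold, and as the controls were close to background this is a lower limit. The gene passed the signal filter only through injured hearts, with 0 of 3 control pools above 6. At 1 dpi the pools read 10.09, 10.65 and 9.77, a change of 5.94 ± 0.52 (adjusted p = 1.32e-07). The 3 dpi pools read 10.45, 9.82 and 9.66, with a change of 5.75 ± 0.52 (adjusted p = 2.11e-07). The 3 injured groups up to 3 dpi were thus all high, and no pool of 1 or 3 dpi reached the lowest pool of 4 hpi. At 7 dpi the signal was 8.99, 9.38 and 7.66 (change 4.45 ± 0.52, adjusted p = 1.6e-05). At 14 dpi it was 8.79, 8.40 and 9.83 (change 4.77 ± 0.52, adjusted p = 2.56e-05). The pools of these 2 groups overlapped each other and stood far above the controls.

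At 90 dpi the pools of *nppal* disagreed. They read 5.05, 4.82 and 7.17, all above the highest control pool, and only replicate 3 was above 6. The change of 1.45 ± 0.52 did not pass (adjusted p = 0.0612, 95% interval 0.35 to 2.55). Without 90 dpi replicate 3 it was 0.70, whereas without replicate 1 or 2 it was 1.76 and 1.88 and passed (adjusted p = 0.0388 and 0.0456). From 14 to 90 dpi the signal of *nppal* changed by -3.33 ± 0.52 (adjusted p = 0.0014). In the order of its group means, which ran from 4 hpi through 1, 3, 14, 7 and 90 dpi to control, the neighbours 7 and 90 dpi differed (3.00, adjusted p = 0.00137). The other 5 neighbouring pairs did not pass, although the pools of 4 hpi and 1 dpi, and those of 90 dpi and control, did not overlap.

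*nppb* was bright in every pool and rose within hours. Control pools read 11.58, 11.71 and 11.78, and those of 4 hpi 13.42, 13.32 and 13.42. The groups did not overlap, and the change was 1.70 ± 0.16 (adjusted p = 5.03e-07), or 3.25-fold. At 1 dpi the pools read 12.76, 12.93 and 13.01, all under the 4 hpi pools, and the change against control was 1.21 ± 0.16 (adjusted p = 1.09e-05). The step from 4 hpi to 1 dpi was -0.49 ± 0.16 (adjusted p = 0.0237). This step no longer passed without 4 hpi replicate 1 or 3 or 1 dpi replicate 1 (-0.47, -0.47 and -0.42, adjusted p = 0.0601, 0.0635 and 0.0898). The 3 dpi pools read 12.84, 12.77 and 12.55, the 7 dpi pools 12.69, 13.04 and 12.53. Those of 14 dpi read 12.78, 12.67 and 13.03. These 3 groups overlapped one another and lay above every control pool. Their changes were 1.03, 1.06 and 1.13 ± 0.16 (adjusted p = 6.27e-05, 1.53e-04 and 2.2e-04), each a little over 2-fold. At 90 dpi the pools read 12.10, 11.48 and 11.95, around the control values, and the change of 0.15 ± 0.16 did not pass (adjusted p = 0.534, 95% interval -0.18 to 0.49). The fall from 14 to 90 dpi was -0.98 ± 0.16 (adjusted p = 0.00154). In the order of group means (4 hpi, then 1, 14, 7, 3 and 90 dpi, then control), 4 hpi differed from 1 dpi and 3 dpi from 90 dpi (adjusted p = 0.0237 and 3.96e-04), and the 4 other neighbouring pairs did not pass.

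*nppa* moved little. Its control pools read 10.00, 10.37 and 10.17, and those of 4 hpi 10.74, 10.31 and 10.82, so that 1 injured pool lay within the control range. The change was 0.45 ± 0.16 (adjusted p = 0.0305), or 1.36-fold. The 3 dpi pools, 10.90, 10.62 and 10.51, and the 7 dpi pools, 10.59, 10.74 and 10.57, all exceeded the highest control pool. Their changes were 0.50 ± 0.16 (adjusted p = 0.0184) and 0.45 ± 0.16 (adjusted p = 0.044). The 1 dpi pools read 10.30, 10.73 and 10.56, the 14 dpi pools 10.61, 10.38 and 10.56, and the 90 dpi pools 10.47, 10.15 and 10.30. Those of 14 dpi cleared the highest control pool, and those of 1 and 90 dpi overlapped the control pools. The changes at these times, 0.35, 0.34 and 0.13, did not pass (adjusted p = 0.0844, 0.161 and 0.605), and the 95% interval at 90 dpi was -0.20 to 0.46. Single pools decided these calls. The 4 hpi call was lost without control replicate 1 or 3 or 4 hpi replicate 1 or 3 (0.36, 0.44, 0.39 and 0.35), and the 3 dpi call without control replicate 1 or 3 dpi replicate 1 (0.41 and 0.39). The 7 dpi call was lost without control replicate 1 or 3 or any 7 dpi replicate, with changes between 0.37 and 0.49. No neighbours in the order of the 7 group means (3, 7 dpi, 4 hpi, 1, 14, 90 dpi, control) differed beyond their spread.

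**Figure D2:**
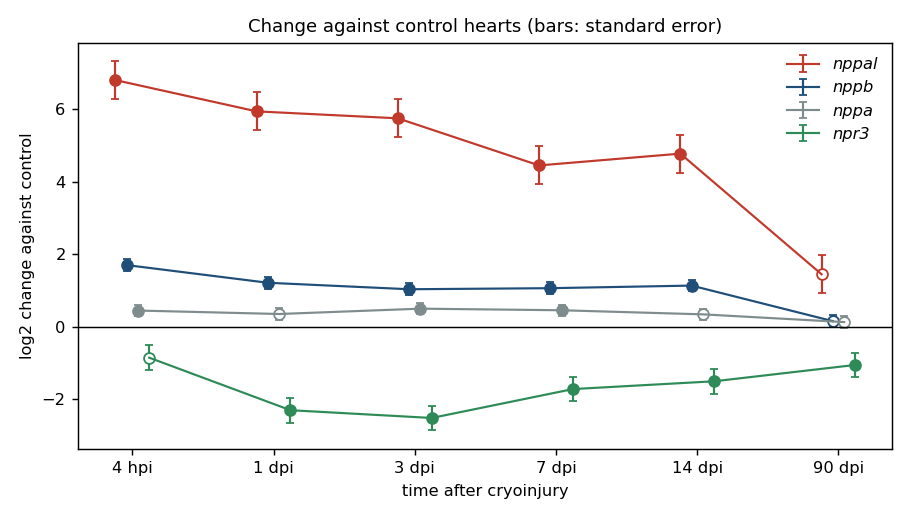
Log2 change against control hearts (y axis) at each time after cryoinjury (x axis, times evenly spaced) for *nppal*, *nppb*, *nppa* and *npr3*, with bars of 1 standard error from the limma fit. Filled points passed an adjusted p of 0.05 and open points did not; the changes at 4 hpi were 6.80, 1.70, 0.45 and -0.85 in this order.

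The changes of the neighbouring ligand genes were also compared within each array, as the difference between 2 genes' log2 signals. From control to 4 hpi the change of *nppb* exceeded that of *nppa* by 1.25, and from control to 14 dpi by 0.79. The pools of control and of each time up to 14 dpi did not overlap in this difference. At 90 dpi they overlapped, with a change of 0.03. The change of *nppal* exceeded that of *nppb* by 5.10 at 4 hpi, 3.38 at 7 dpi and 1.29 at 90 dpi, without overlap with the controls at any of the 6 times. As the control signal of *nppal* was close to background, its differences from *nppb* up to 14 dpi may be lower limits too. This takes the change of *nppb* as measured. At 90 dpi only replicate 3 of *nppal* was above a log2 signal of 6. The difference there rests on low signals and need not be a lower limit. In these 12 comparisons the exact two-sided permutation p was 0.1 in 11 and 0.7 in the 1 of *nppb* and *nppa* at 90 dpi. With 3 pools against 3 no p below 0.1 is possible, so none could pass.

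*npr3* moved the other way, with its lowest signal at 1 and 3 dpi. Control pools read 8.54, 8.02 and 8.14. The 4 hpi pools read 6.64, 7.85 and 7.65, already below every control pool, but the change of -0.85 ± 0.34 did not pass (adjusted p = 0.0563, 95% interval -1.57 to -0.14). It passed without 4 hpi replicate 2 (-1.09, adjusted p = 0.031) and under quantile normalization or centring on array medians, where it was -0.95 and -0.87 (adjusted p = 0.0339 and 0.0492). At 1 dpi the pools read 5.94, 6.05 and 5.82, and at 3 dpi 5.42, 6.17 and 5.57. These 6 pools were the lowest of the 21, with changes of -2.30 ± 0.34 and -2.52 ± 0.34 (adjusted p = 4.03e-05 and 1.73e-05), so that the signal at 3 dpi was 5.72-fold lower than in control hearts. Only 1 of 3 pools at each of these times exceeded 6, although all lay above the highest array median (5.20), and the fold rests on these low signals. The step from 4 hpi to 1 dpi was -1.45 ± 0.34 (adjusted p = 0.00291).

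The signal of *npr3* then climbed in part. The pools read 6.38, 6.65 and 6.51 at 7 dpi and 6.75, 7.22 and 6.23 at 14 dpi, with a change against control of -1.72 ± 0.34 (3.29-fold lower, adjusted p = 0.00162) at the earlier time and a 2.84-fold lower signal at the later one (adjusted p = 0.00724). At 90 dpi they read 7.94, 6.53 and 7.07, wide apart and all below the lowest control pool. That change was -1.05 ± 0.34 (adjusted p = 0.0394). Among the changes of the 4 genes at 90 dpi it was the one that passed, and it did not pass without any single control pool, without 90 dpi replicate 2 or without replicate 3 (changes between -1.16 and -0.73). The differences from 3 dpi, 1.01 ± 0.34 at 14 dpi and 1.46 ± 0.34 at 90 dpi, passed (adjusted p = 0.0464 and 0.00321). In the order of its group means, control, 4 hpi, 90, 14, 7, 1 and 3 dpi, no pair of neighbours passed, although the pools of control and 4 hpi, and those of 7 and 1 dpi, did not overlap.

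The cyclase receptor gene *npr1a* read between 3.94 and 5.03 in the 21 pools, below the median of every array. The highest values were those of 3 dpi, 5.03, 4.94 and 4.77, against 4.20, 4.37 and 4.38 in control hearts, and these groups did not overlap. Tested without the signal filter, over 75212 features, the change at 3 dpi was 0.60 ± 0.12 (adjusted p = 0.0013), and at the other 5 times the adjusted p was 0.186 or more.

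Between consecutive times the members moved at 2 of 5 steps. From 4 hpi to 1 dpi 2 members were lower, *nppb* and *npr3*, and so were 15% of features (34.4% were called in either direction). From 14 to 90 dpi *nppb* and *nppal* were lower, with 7.03% of features (11.3% in either direction). At the steps to 3, 7 and 14 dpi limma called 0 of 4 (0, 2 and 0 at an unadjusted p under 0.05), where 3.99%, 6.97% and 2.38% of features were called in either direction.

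Markers of the cells that could hold these transcripts moved as follows. Of the 7 cardiomyocyte markers, limma called 0 higher at any time (1 at 4 hpi, 1 at 14 dpi and 2 at 90 dpi at an unadjusted p under 0.05), while 1 was lower at 4 hpi (*ryr2b*), 2 were lower at 1 dpi and 3 at 3 dpi, where 17.5%, 16.5% and 14.9% of all features were lower. Their mean log2 signal lay between 11.99 and 12.09 in control pools and between 11.91 and 12.01 at 4 hpi, when *nppal* and *nppb* were highest. Of the ventricular markers 1, *irx1a*, was tested under the symbol listed here. It was lower at 4 hpi (-0.66 ± 0.25, adjusted p = 0.044), with pools that overlapped the controls, and limma did not call it at other times. The ventricular markers *irx1b* and *irx4a* stayed below the signal filter, and no feature bore the symbol *vmhc*. The gene once called *vmhc* is *myh7*, which was tested in another list, given below. *myh7* was lower at 4 hpi, 1 and 3 dpi, with changes of -0.75, -0.73 and -0.50 (adjusted p = 0.00141, 0.0017 and 0.0221). Of *myh6*, *nr2f2* and *tbx5b*, listed here as atrial markers, none was called higher by limma (1 at 4 hpi without adjustment). Between 9.39% and 22% of all features were higher at the 6 times. *tbx5b* was lower at 4 hpi, 1, 3 and 14 dpi, where 17.5%, 16.5%, 14.9% and 4.57% of features were lower. With 3 genes, such counts say little beside these shares. With a control mean of 11.59 in these ventricles, its fall cannot be read as a change of atrial tissue alone. The atrial myosin gene *myh6* differed from control by 0.75 ± 0.34 at 4 hpi and did not pass (adjusted p = 0.0876). The atrium marker *nr2f1a* stayed below the signal filter. In mammals *npr3* marks the endocardium. Of 7 endothelial and endocardial markers 2 were lower at 4 hpi, when the *npr3* pools already lay below the controls (17.5% of features): *nfatc1* by -1.40 ± 0.25 and *tie1* by -0.59 ± 0.13 (adjusted p = 2.8e-04 and 0.00169). *cdh5* was higher (0.31 ± 0.11, adjusted p = 0.0339). In this list limma called 0 at 1 dpi (1 lower at an unadjusted p under 0.05), when *npr3* had fallen, and 2, *kdrl* and *tek*, were lower at 3 dpi (14.9% of features). At 7, 14 and 90 dpi, when *npr3* was still lower, it called 0 of them (0 also at an unadjusted p under 0.05). Of all features 8.02%, 4.57% and 7.68% were lower at these times. The mean of these 7 markers lay between 9.80 and 10.01 in control pools, between 9.56 and 9.75 at 4 hpi and between 9.62 and 9.92 at 1 dpi. Of 8 leukocyte markers 6 were higher at 4 hpi (21.3% of all features), 7 at 1 dpi (22%) and 8 at 3 dpi (20.7%). At 7, 14 and 90 dpi 5, 5 and 4 were higher (14.5%, 9.39% and 11.2%). Their mean lay between 5.82 and 5.94 in control pools, 6.74 and 7.45 at 4 hpi and 8.42 and 9.08 at 3 dpi. The control means of *ptprc*, *spi1a*, *mpx* and *lyz* (5.62, 5.42, 4.46 and 4.80) lay below the filter, which they may have passed only through other groups. Of 6 fibroblast markers 3 were lower at 4 hpi (17.5% of features) and 3 higher at 1 dpi (22%). At 3, 7 and 14 dpi 6 were higher (20.7%, 14.5% and 9.39% of features), with a median change of 1.95 at 3 dpi. Of 5 epicardial markers *tcf21* and *tbx18* were lower at 4 hpi and 1 dpi (17.5% and 16.5% of features). *aldh1a2* was higher at 4 hpi (21.3%), *wt1a*, *wt1b* and *aldh1a2* were higher at 1 dpi (22%), and 4 markers at 3 dpi (20.7%). Of 5 smooth muscle markers 2 were higher at 4 hpi (21.3% of features), 2 at 1 dpi (22%) and 4 at 3 dpi (20.7%). At 7, 14 and 90 dpi 1, 4 and 1 were higher (14.5%, 9.39% and 11.2%). The control means of *elna* and *elnb* in this list (5.64 and 4.41) also lay below the filter. Of 5 erythrocyte markers 1, *epor*, was higher at 4 hpi, near the share of all features (21.3%), while 2 were lower at 14 dpi (4.57%) and 1 at 90 dpi (7.68%). The part of a changed cell make-up in the rise of the ligands and the fall of *npr3* was not tested.

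The rest of the pathway was followed with a list of 42 symbols for other ligands, processing enzymes and cyclic GMP signalling, of which 28 had a feature and 15 passed the filter. At 4 hpi 6 were higher and 6 lower, with a median change of 0.18 against 0.05 over all tested features, of which 21.3% were higher and 17.5% lower. From 1 to 90 dpi the numbers called higher were 6, 6, 5, 5 and 3, and those called lower 5, 4, 5, 2 and 4. The medians at these times were -0.00, -0.14, -0.05, 0.27 and -0.01, beside 0.05, 0.02, 0.02, 0.06 and 0.01 for all tested features. Of all features 22%, 20.7%, 14.5%, 9.39% and 11.2% were higher at these times and 16.5%, 14.9%, 8.02%, 4.57% and 7.68% lower. Among ligands, *nppc*, the C-type peptide, rose by 1.55 ± 0.31 at 4 hpi and 0.84 ± 0.31 at 1 dpi (adjusted p = 8.55e-04 and 0.042). Its other feature rose at the same times by 3.35 ± 0.56 and 1.89 ± 0.56 (adjusted p = 1.48e-04 and 0.0118), in the same direction. In control hearts the features averaged 5.61 and 4.21, below the filter, which they passed only through other groups. The other feature, at 4.21, was close to background there, so its changes are lower limits. The features of *nppcl*, a C-like peptide gene, stayed between 3.73 and 4.77, below the filter. *ostn* encodes osteocrin, which binds the clearance receptor in mammals, and its changes, between -0.16 and 0.53, did not pass at any time.

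Genes of cyclic GMP signalling went in both directions. *prkg1a*, which encodes a cyclic GMP-dependent protein kinase, rose at all 6 times, with changes of 1.70 ± 0.22 (4 hpi, adjusted p = 1.08e-05) and 1.07 ± 0.22 (90 dpi, adjusted p = 0.00347). *vaspb*, whose mammalian counterpart is a substrate of that kinase, rose at the 5 times up to 14 dpi, most at 1 dpi (1.32 ± 0.18, adjusted p = 1.93e-05). The phosphodiesterase genes divided. *pde3a* rose by 1.87 ± 0.14 at 4 hpi (adjusted p = 4.34e-08), and *pde9ab*, of a family specific for cyclic GMP, by 1.24 ± 0.28 at 3 dpi (adjusted p = 0.00229). *pde3b* and *pde1a* were both at -0.97 ± 0.11 at 3 dpi (adjusted p = 1.99e-06 and 2.3e-06), and *pde5ab* at -0.98 ± 0.28 at 4 hpi (adjusted p = 0.00994). *nos1*, a nitric oxide synthase gene that feeds the soluble cyclase branch, fell by 2.66 ± 0.47 at 4 hpi (adjusted p = 2.45e-04) and was called lower at every time but 14 dpi. At 4 hpi *nos1* averaged 5.30 and *pde5ab* 4.64, below 6, so the sizes of these 4 hpi falls rest on low signals. *prkg1a*, *pde9ab* and *pde5ab* lay below 6 in all control pools and passed the filter only through other groups. The genes of processing enzymes differed in direction. The convertase gene *pcsk5b* changed by -1.35 ± 0.20 at 4 hpi (adjusted p = 4.8e-05). *furinb*, which encodes a furin convertase, rose at all 6 times, by 0.49 ± 0.11 at 4 hpi and 0.89 ± 0.11 at 1 dpi (adjusted p = 0.00215 and 6.56e-06). *furina* rose by 0.30 ± 0.11 at 4 hpi (adjusted p = 0.0409) and was lower at 7 and 90 dpi. *mmel1*, a relative of the peptide-degrading protease neprilysin, changed by -1.36 ± 0.26 at 4 hpi and 1.26 ± 0.26 at 3 dpi (adjusted p = 5.5e-04 and 0.00104). Its mean at 4 hpi, 5.31, was also below 6.

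**Figure D3:**
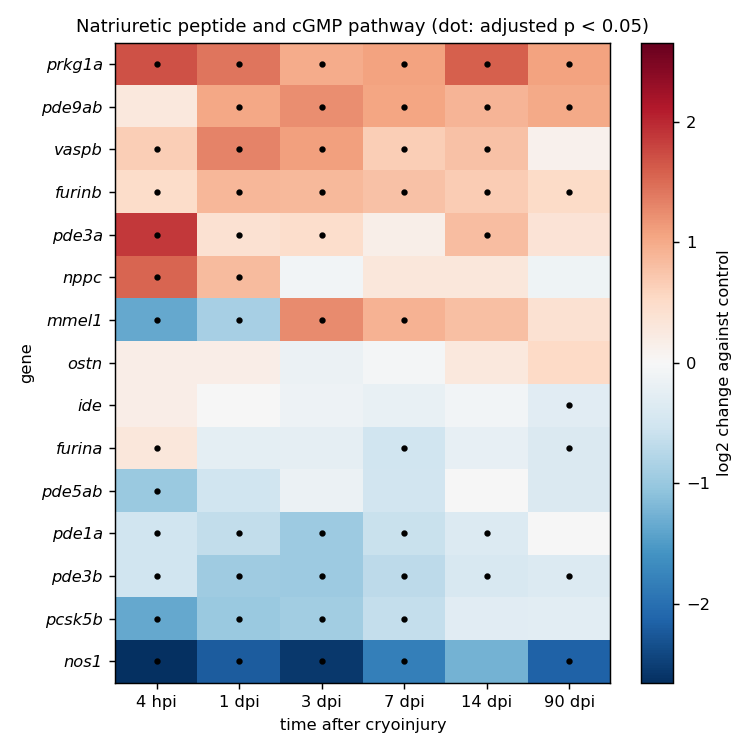
Log2 change against control hearts (colour) of the 15 tested genes of the natriuretic peptide and cyclic GMP pathway (rows, by mean change) at 6 times after cryoinjury (columns), with a dot where the adjusted p was under 0.05. *prkg1a* was higher at all 6 times and *nos1*, at the bottom, was at -2.66 at 4 hpi.

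Genes that strained or border zone heart muscle is known to express were read beside the ligands, as a list of 22 symbols of which 18 were tested. The members called higher numbered 6, 4, 6, 6, 6 and 2 from the first time to the last, and those called lower 3, 9, 5, 4, 1 and 2. Of all features 21.3%, 22%, 20.7%, 14.5%, 9.39% and 11.2% were higher at these 6 times. The shares lower were 17.5%, 16.5%, 14.9%, 8.02%, 4.57% and 7.68%. Several counts were near these shares. They were 3 of 18 lower at 4 hpi, 4 of 18 higher at 1 dpi, 1 of 18 lower at 14 dpi and 2 of 18 higher at 90 dpi. The median changes were 0.16, -0.29, -0.20, 0.16, 0.19 and -0.01 in this order, against 0.05, 0.05, 0.02, 0.02, 0.06 and 0.01 over all tested features. *ankrd1a*, which encodes a stress-induced muscle ankyrin repeat protein, moved from a control mean of 4.74 to 8.71 at 4 hpi (change 3.97 ± 0.26, adjusted p = 1.76e-08). Its change at 14 dpi was still 1.86 ± 0.26 (adjusted p = 2.29e-04), and at 90 dpi its mean was 4.63. It lay below the filter in all control pools and passed only through injured groups. Its control pools also read below the median of every array, so its changes may be lower limits. *mustn1b*, a musculoskeletal gene, rose at all 6 times, with changes of 0.70 ± 0.09 (4 hpi, adjusted p = 1.19e-05) and 0.46 ± 0.09 (90 dpi, adjusted p = 0.00274). *tnnc1b*, a troponin C gene, fell at all 6 times, with a change of -1.48 ± 0.23 at 4 hpi (adjusted p = 9.21e-05). *myh7*, the ventricular myosin gene once called *vmhc*, fell at the 3 times up to 3 dpi, with a change of -0.75 ± 0.16 at 4 hpi (adjusted p = 0.00141). *mustn1a*, also below the filter in control hearts, rose by 1.23 ± 0.16 and *tagln*, the gene of the actin-binding protein transgelin, by 1.16 ± 0.12 at 3 dpi (adjusted p = 1.28e-05 and 6.56e-07). The small heat shock protein genes parted, with *hspb11* at 0.80 ± 0.17 at 3 dpi and *hspb8* at -0.96 ± 0.25 at 90 dpi (adjusted p = 0.00108 and 0.0143). *xirp2a* rose by 0.71 ± 0.12 at 14 dpi, and *nexn* by 0.65 ± 0.13 at 90 dpi after a change of -0.41 ± 0.13 at 1 dpi (adjusted p = 0.00123, 0.00314 and 0.0187).

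**Figure D4:**
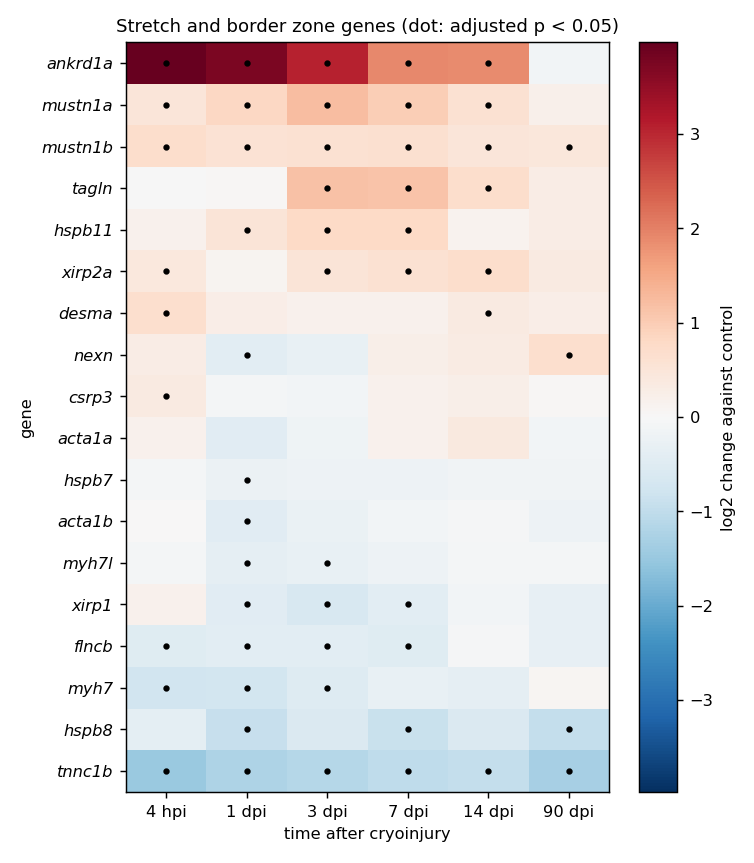
Log2 change against control hearts (colour) of the 18 tested genes of strained or border zone heart muscle (rows, by mean change) at 6 times after cryoinjury (columns), with a dot where the adjusted p was under 0.05. The top row, *ankrd1a*, was at 3.97 at 4 hpi, and other rows of the list were lower, such as *tnnc1b* at -1.48.

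Among 11686 other genes with 1 tested feature each, the ones with the most similar course over the 21 arrays were found by Pearson correlation, which is given as a description, since the arrays fall into groups and share the large changes of injury. For *nppal* these were *adam9a*, a membrane protease gene (r = 0.958), *actn1*, which encodes the non-muscle actin crosslinker alpha-actinin 1 (0.954), *si:dkey-25e12.3* (0.954), the calpain gene *capn2a* (0.954) and *il6st*, the shared receptor of the interleukin 6 family (0.953). For *nppb* they were *hcar1-4*, a hydroxycarboxylic acid receptor gene (0.954), *si:dkey-25e12.3* again (0.952), *pdlim1* (0.944), *nppal* itself (0.942) and the nucleophosmin gene *npm1a* (0.937). Over the 7 group means, *nppb* and *nppal* correlated at 0.969. The genes most like *npr3* were *camk2d2*, a calcium/calmodulin kinase gene (0.946), the phosphodiesterase gene *pde3b* (0.921), *syt1a* (0.921), *mylk4a* (0.917) and *ablim3* (0.915). *nppa*, with its narrow range, had no neighbour above 0.813, the value of *jpt1b*, followed by *phf10*, *gapdhs*, *entpd6* and *ppa1b* (0.797 to 0.787).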

How the data were processed

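Biotin-labelled RNA of 21 pools was hybridised to Affymetrix Zebrafish Gene 1.0 ST arrays. The authors made the deposited log2 signals by robust multi-array averaging with correction for GC content in Partek Genomics Suite; the genome build is not given in the sources used here. These signals compare a feature between samples and give no absolute amounts. The values were used as deposited, and 0 value columns were left over. The number of arrays limits the precision.

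Features were named from the annotation table of the array (20806 with a single symbol, 855 with several, 53551 with none). For a gene with several features the one with the highest mean was used. Signals were fitted in R 4.3.3 with limma 3.58.1 (lmFit, eBayes, 7 groups, 14 residual degrees of freedom) after the filter of the methods, and p values were adjusted by Benjamini-Hochberg within each of the 21 pairs of groups. Plots used matplotlib 3.10.9 in Python 3.11.15. Members, gene lists and tests were chosen with earlier results of these data known. Genes named with values are the members, up to 10 called genes per list with the largest changes, the 5 genes most correlated with a member, and markers. *ostn*, *furina*, *furinb* and the other feature of *nppc* fall outside this rule and were chosen after their values were seen. Data for 4 hpi against control were simulated with independent noise for 35783 features. Of these, 100 were changed by 1 and 100 by 2 on the log2 scale. The fit recovered 64% and 96% of them, with 6 wrong calls. In the real arrays 21.3% of features were called higher and 17.5% lower at 4 hpi, so these rates may not carry over. Alternatives covered filters, scaling, variance model, the arrays fitted, a replicate block and leaving out pools. All members had 1 feature, so the alternative of another feature could not be run, and the promoter motifs were not searched, as no promoter sequences were used here.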

Additional observations from a re-analysis of the deposited data

Results flagged for a closer look

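Changes against control hearts differed between consecutive times for 3 of the 4 tested genes, by a limma contrast of the times themselves. From 4 hpi to 1 dpi *nppb* changed by -0.49 ± 0.16 and *npr3* by -1.45 ± 0.34 (adjusted p = 0.0237 and 0.00291). At this step 34.4% of all tested features were called in either direction. The *nppb* call was lost in 3 of 6 fits that left out 1 pool. From 14 to 90 dpi *nppb* changed by -0.98 ± 0.16 and *nppal* by -3.33 ± 0.52 (adjusted p = 0.00154 and 0.0014). Of all tested features 11.3% were called in either direction there. Neither of these calls held with only the 6 arrays of the comparison.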

How the results depend on the processing

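Of the changes against control, those of *nppb* and *nppal* from 4 hpi to 14 dpi and of *npr3* from 1 to 14 dpi were stable. They kept their direction and their side of the threshold under all alternatives. The counts of both gene lists were rerun only with quantile normalization, without the signal filter and with the replicate block. They stayed within 1.5 times in 36 of 36, and other alternatives were not run for them. Quantile normalization brought past the threshold *nppa* at 1 dpi (0.40), *npr3* at 4 hpi (-0.95) and *nppal* at 90 dpi (1.56), with 2 members called at 90 dpi in place of 1, and median centring *npr3* at 4 hpi (-0.87). Without the signal filter *nppa* at 7 dpi (0.45) and *npr3* at 90 dpi (-1.05) were lost, leaving 0 members at 90 dpi, and *npr1a* became the 1 member called from 1 to 3 dpi. With only the 6 arrays of a comparison, *nppa* at 4 hpi and 7 dpi (0.45 and 0.45) and *npr3* at 90 dpi (-1.05) were lost, leaving 0 members at 90 dpi against control and 0 from 14 to 90 dpi (2 in the fit of all arrays). Such fits have fewer residual degrees of freedom, and by them limma called 2975 features in place of 4995 at 14 dpi, 2261 in place of 6770 at 90 dpi, 1390 in place of 2494 from 3 to 7 dpi, 5 in place of 852 from 7 to 14 dpi and 11 in place of 4052 from 14 to 90 dpi. At 3 dpi 19815 features were called without the filter and 12719 with it.

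Leaving out 1 pool of a comparison moved *nppa* between 0.35 and 0.60 (4 hpi), 0.25 and 0.47 (1 dpi), 0.39 and 0.59 (3 dpi), or 0.37 and 0.55 (7 dpi). It moved *npr3* between -1.09 and -0.48 at 4 hpi and between -1.43 and -0.73 at 90 dpi, *nppal* between 0.70 and 1.88 at 90 dpi, and the members called between 0 and 2 at 90 dpi and between 1 and 2 from 4 hpi to 1 dpi. Changes between consecutive times that were not called spanned 0, namely *nppa* from 4 hpi to 1 dpi (-0.25 to 0.019) and from 3 to 7 dpi (-0.13 to 0.068), *nppal* from 1 to 3 dpi (-0.43 to 0.049) and from 7 to 14 dpi (-0.19 to 0.68), *nppb* from 3 to 7 dpi (-0.11 to 0.14) and from 7 to 14 dpi (-0.039 to 0.21), and *npr3* from 7 to 14 dpi (-0.027 to 0.47). Features called ranged from 3088 to 4148 at 14 dpi, 2999 to 7730 at 90 dpi, 911 to 1475 from 1 to 3 dpi (1428 with all pools), 923 to 2294 from 3 to 7 dpi, 131 to 598 from 7 to 14 dpi and 1476 to 4778 from 14 to 90 dpi.

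Pools with the same replicate number did not deviate together on average (mean correlations of residuals of 0.02, 0.00 and 0.02, single pairs between -0.15 and 0.20). The paper describes independent experiments, and the labels do not link them to these numbers. Such weak correlations cannot show whether the numbers pair samples. With the replicate number as a block, *nppa* at 7 dpi (0.45, adjusted p = 0.0591) was the 1 change of a member against control that lost its call, and no count of calls moved by over 1.5 times. Values of *npr1a* and of *nppal* in control hearts lie near background, where the array resolves little.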
